A study of Arabidopsis thaliana with 4 samples.

Results

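The psbB operon of the Arabidopsis thaliana chloroplast joins 5 genes on the plus strand, psbB, psbT, psbH, petB and petD, with psbN on the opposite strand between psbT and psbH. These 6 genes were taken by name from the annotation of the TAIR10.1 chloroplast sequence, out of 130 annotated genes. From the first base of psbB to the last base of petD the operon spans positions 72371 to 77672, or 5302 nt, in a part of the genome present in 1 copy. Cut into exons, introns and the spacers between genes, it gave 15 of the 311 segments of the chloroplast genome.

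RNA was recovered from chloroplast stroma extracts with an antibody against the HA tag and sequenced (RIP-seq), to ask whether the protein dPPRrbcL associates with rbcL mRNA and which other RNAs come with it. One group was the transgenic dPPRrbcL line, whose label names neither promoter nor number of lines, and the other was WT (Col-0) plants, which went through the same pull-down and serve as its background. All plants were 2 weeks old, grown in 12 h of light at 21 °C and 12 h of dark at 18 °C, and each group had 2 libraries. The labels do not say whether the replicates came from separate plants, so the p-values measure only the spread between these libraries. The limma p-values below also pool this spread over genes, segments, windows or introns. The values are read coverage, the number of reads over each nucleotide, which can be compared between genes because it does not grow with gene length. The files hold chloroplast positions only, so the labelled stroma fraction could not be checked against RNAs of other compartments. More RNA recovered per transcript and a more abundant transcript cannot be told apart in such libraries.

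The operon is known for mixing the parts of 2 thylakoid complexes in 1 transcription unit. psbB encodes CP47, an inner antenna protein of photosystem II, and psbT and psbH encode small subunits of the same complex. psbN encodes a protein needed for photosystem II assembly and not a subunit of it. petB encodes cytochrome b6 and petD encodes subunit IV, both of the cytochrome b6f complex, and each of these genes holds a group II intron after a very short first exon. The long primary transcript is cut between genes and spliced, and nuclear-encoded RNA-binding proteins of helical-repeat families, among them pentatricopeptide repeat (PPR) proteins, are known to define and protect ends of chloroplast transcripts of this kind.

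The results turn on 3 places, whose sequences are given from the TAIR10.1 chloroplast sequence, plus strand. The first is the spacer between psbT and psbN at 74184 to 74248, the least covered spacer inside the operon in every library. Its capitals mark the arms of a perfect inverted repeat. The steep fall of coverage before it lay at 74158 to 74160, still within psbT.

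psbT-psbN spacer: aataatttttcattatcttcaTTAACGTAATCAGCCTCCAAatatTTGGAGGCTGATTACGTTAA

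The arms are 20 nt each, at 74205 to 74224 and 74229 to 74248, around a loop of 4 nt, and the second arm ends on the base before the psbN interval. Of 121 spacers of at least 20 nt, 3 (2.48%) held an uninterrupted stem of 20 bp or more with a loop of 3 to 10 nt, and in the other 4 spacers inside the operon the longest such stem was 4 or 5 bp. The next pair of sequences shows the first exons of petB (6 nt) and petD (8 nt), in capitals, and the start of their introns.

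petB exon 1 and intron start (74841 to 74890): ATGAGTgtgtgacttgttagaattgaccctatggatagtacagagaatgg
petD exon 1 and intron start (76481 to 76530): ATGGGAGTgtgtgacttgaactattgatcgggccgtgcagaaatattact

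Both introns begin with GTGTG, and 15 of the 25 annotated chloroplast introns (60%), read on the strand of their gene, begin with GTGNG. The last sequence is the 50-nt window inside the petB intron, at 74901 to 74950, whose standing in dPPRrbcL against WT was the lowest along the operon.

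petB intron window: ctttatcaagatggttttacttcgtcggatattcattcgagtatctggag

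Mean coverage of the chloroplast genome was similar in all 4 libraries, from 10373 to 12917 reads per nucleotide, but its make-up was not. rRNA genes took 98.4% to 98.8% of the coverage in WT and 90.3% to 91.4% in dPPRrbcL, and the median position had 10 and 11 reads in WT against 191 and 205 in dPPRrbcL. Across the operon the WT libraries averaged 339.9 (replicate 1) and 413 (replicate 2) reads per nucleotide, and the dPPRrbcL libraries 3014 and 2787. Scaled to the library total, 105 of 112 genes tested (93.8%) were higher in dPPRrbcL, with a median log2 change of 3.81, so a rise of the 6 genes on that scale is shared by nearly all chloroplast genes. The comparisons below therefore set the operon against the median gene, its introns against its own exons, and its segments against the operon mean.

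Values are given with replicate 1 before replicate 2. psbB was covered by 654 and 826 reads per nucleotide in WT, and by 5149 and 4822 in dPPRrbcL. psbT had 207 and 347 reads per nucleotide in WT and 4646 and 3785 in dPPRrbcL. psbH had 71.7 and 56.3 in WT and 1386 and 1286 in dPPRrbcL. In each of these photosystem II genes both dPPRrbcL libraries lay above both WT libraries, and the order psbB, psbT, psbH held in every library. psbN had 141 and 151 reads per nucleotide in WT and 2608 and 2650.2 in dPPRrbcL. Since the coverage is not split by strand and strand use is not given in the sources used here, reads from psbN itself and from the operon transcript that runs across it cannot be told apart. The exons of petB had 152 and 199 reads per nucleotide in WT and 1965 and 1760.2 in dPPRrbcL. The exons of petD had 54.8 and 66.9 in WT and 1381 and 1318 in dPPRrbcL. psbH and petD were the least covered genes in both groups, and their libraries overlapped within each group. In WT, petB lay only just above psbN (152 against 151 for the nearest libraries), while in dPPRrbcL psbN lay above petB in both libraries.

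**Figure D1:**
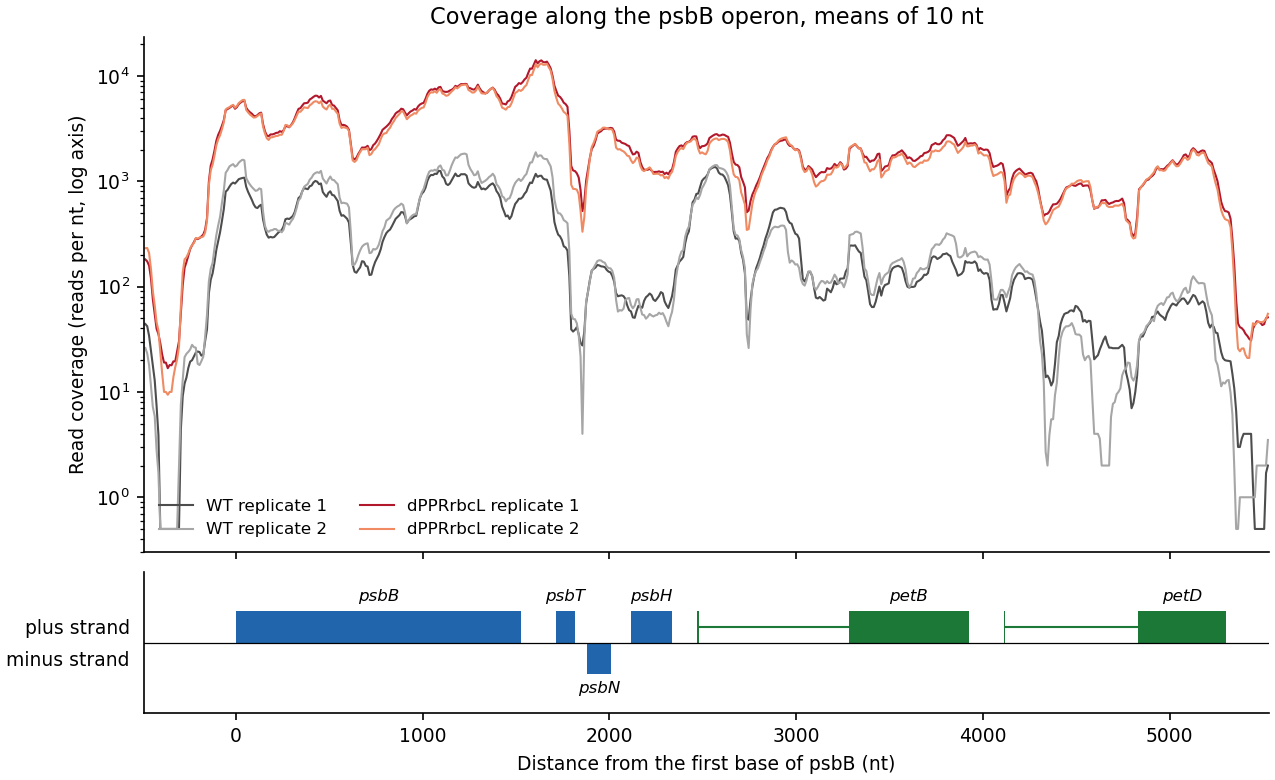
Read coverage in reads per nucleotide (log axis, means of 10 nt, values under 0.5 drawn at 0.5) against the distance from the first base of psbB, for the 2 WT and 2 dPPRrbcL libraries, above a map of exons (boxes) and introns (lines) on each strand. Both dPPRrbcL curves lie above both WT curves along the whole operon, and the gap narrows at the start of the petB intron, where WT reaches its level over psbB.

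Scaled to the library total, all 6 genes were higher in dPPRrbcL (limma with Benjamini-Hochberg adjustment over 112 genes), on the log2(coverage + 1) scale. The log2 changes were 2.65 for psbB (SE 0.30, adjusted p = 2.14e-04), 3.30 for petB (SE 0.31), 3.86 for psbT (SE 0.40), 4.05 for psbN (SE 0.25), 4.26 for psbH (SE 0.22) and 4.35 for petD (SE 0.28). psbB thus rose less than the median gene and ranked 94 of 112 by its change, petB ranked 76, and petD ranked 31. rbcL, the intended target, rose by 4.90 on the same scale and ranked 16.

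Relative to the median gene, 1 member was higher and 2 were lower, where 25.9% of the 112 genes tested were higher and 35.7% were lower. For this scale each library was divided by its median ratio over the genes covered in every library. psbB was lower, by limma at -1.10 on the log2 scale (SE 0.10, adjusted p = 0.00169). petB was lower by a smaller amount, -0.45 (SE 0.11, limma adjusted p = 0.0305). petD was higher, with 0.60 (SE 0.10, limma adjusted p = 0.00821). The changes of psbT (0.10, SE 0.22), psbN (0.30, SE 0.11) and psbH (0.51, SE 0.23) did not pass (limma, adjusted p = 0.674, 0.0820 and 0.116 in that order). The median over the 6 genes was 0.20, beside 0.14 over 85 protein-coding genes tested and 0.06 over all 112 genes, and rbcL stood at 1.14 (SE 0.10, limma adjusted p = 0.00148). The standing against the median gene depends on how genes of low WT coverage are weighted. With a pseudocount of 1% of the library mean, more than the WT coverage of psbH or petD, petD stood at -0.80. With the same pseudocount and the median ratio taken after it, psbB stood at 1.00 and petB at 1.18, and with each library scaled to what rRNA and tRNA genes left of its coverage, which moves the median gene to 0.99, psbB stood at -0.16 (adjusted p = 0.323) and petB at 0.49. The calls on petB and petD were lost without either dPPRrbcL library (adjusted p from 0.121 to 0.262), while psbB passed the test with any 1 library left out.

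**Figure D2:**
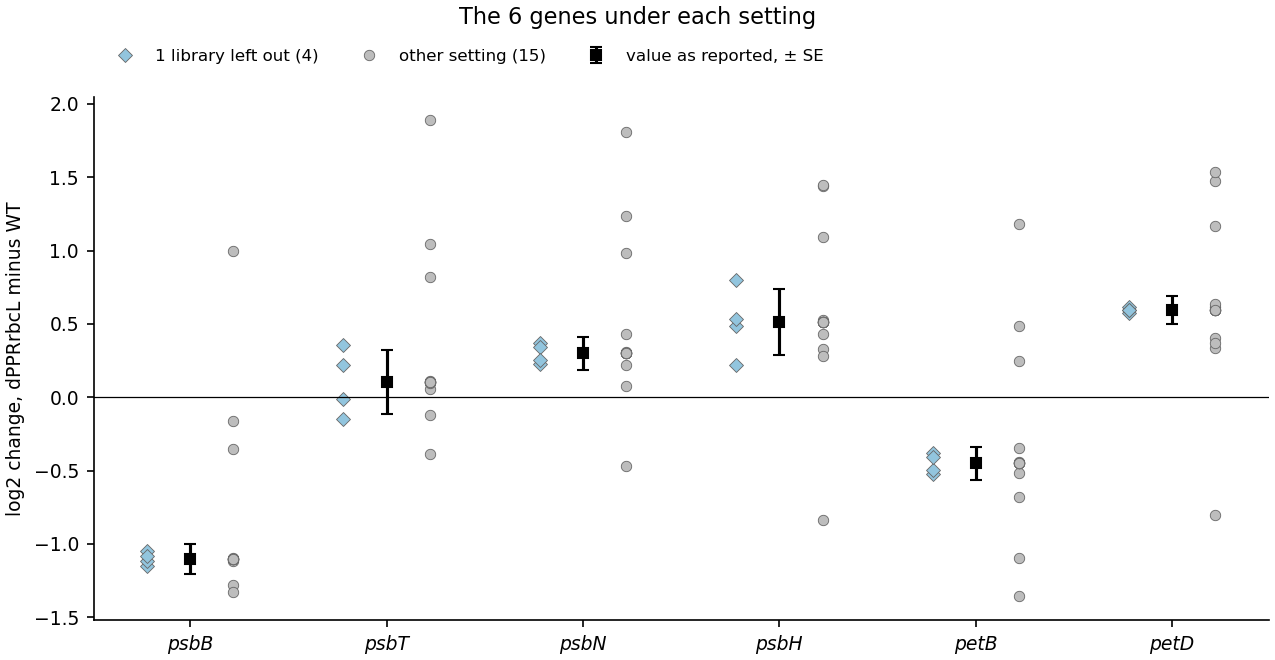
Log2 change of each of the 6 genes, dPPRrbcL minus WT, as reported with its SE (black squares), with 1 library left out (diamonds) and under 15 other settings of scaling, pseudocount, filter or model (circles). psbB is at -1.10 as reported and lower in 18 of 19 settings, psbT lies on both sides of 0, and petD is at 0.60 as reported with 1 setting at -0.80.

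Ratios between genes of the same library need no scaling. psbB exceeded petD 11.9 and 12.3 times in WT replicates 1 and 2 but 3.73 and 3.66 times in dPPRrbcL replicates 1 and 2. petB exceeded petD 2.78 and 2.98 times in WT and 1.42 and 1.34 times in dPPRrbcL. psbB exceeded psbT 3.16 and 2.38 times in WT and 1.11 and 1.27 times in dPPRrbcL. The groups did not overlap in these 3 ratios, which were lower in dPPRrbcL. How many other gene pairs of the genome separate in this way was not counted. psbT exceeded psbH 2.88 and 6.15 times in WT and 3.35 and 2.94 times in dPPRrbcL, with overlap. psbH stood at 0.471 and 0.283 times petB in WT and at 0.705 and 0.731 times in dPPRrbcL, a ratio that was higher in dPPRrbcL without overlap. The ratios thus did not shift in 1 direction along the operon. psbN stood at 1.97 and 2.68 times psbH in WT and at 1.88 and 2.06 times in dPPRrbcL, and there the groups did overlap.

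As a share of the summed coverage of the 6 genes, psbB held 84.6% ± 0.03 (SD, n = 2) in WT and 72.2% ± 0.37 (SD, n = 2) in dPPRrbcL. petD went from 2.21% ± 0.05 (SD, n = 2) to 6.18% ± 0.11 (SD, n = 2) and petB went from 8.52% ± 0.20 (SD, n = 2) to 11.4% ± 0.30 (SD, n = 2). The 6 genes together made up 16.3% and 16.7% of the coverage of all protein-coding genes in WT replicates 1 and 2, and 9.86% and 10.01% in dPPRrbcL replicates 1 and 2. The groups did not overlap, and the difference of the means, dPPRrbcL minus WT, was -6.58 percentage points; the exact two-sided permutation test gave p = 0.333, the smallest that 2 against 2 libraries allow. The fall was not shared by all members. On average psbB went from 14.0% of that coverage in WT to 7.17% in dPPRrbcL, and petB from 1.41% to 1.14%. The mean shares of psbT, psbN, psbH and petD rose, that of petD from 0.364% to 0.614%. Without rbcL in the total the shares of the 6 genes together were 18.9% and 19.1% in WT and 14.4% and 14.6% in dPPRrbcL.

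The introns of petB and petD were compared with the exons of their own gene, over all 24 introns tested of 25. In WT the petB intron carried more coverage than the petB exons, and in dPPRrbcL it carried less. The intron had 424 and 400.2 reads per nucleotide in WT, and 1716 and 1581 in dPPRrbcL. The ratio of intron to exons was 2.78 and 2.01 in WT and 0.873 and 0.898 in dPPRrbcL, a log2 difference of -1.41 (SE 0.20, limma adjusted p = 1.15e-07). This was the largest fall among the 24 introns. By limma, 37.5% of them were called lower in dPPRrbcL and 12.5% higher, at an adjusted p under 0.05. Other introns had a lower ratio without passing. The petB ratio kept its direction in each of the 9 alternatives, from -1.64 to -1.18. atpF, whose intron interrupts a gene for an ATP synthase subunit, came next at -1.27 with the same SE, so the order of these 2 introns is within their error. That SE is 1 value pooled over all 24 introns, so the p for petB does not rest on its own libraries alone. The 24 include both genome copies of the rps12, trnI, trnA, ndhB and rpl2 introns, which are not independent. A fit of the ratios with 1 copy of each was not run. With a replicate block the petB ratio had a limma adjusted p = 0.0326.

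The petD intron had 51.4 and 44.8 reads per nucleotide in WT and 774 and 736 in dPPRrbcL. Its ratio to the petD exons was 0.938 and 0.669 in WT and 0.560 and 0.559 in dPPRrbcL, a log2 difference of -0.51 (SE 0.20, limma adjusted p = 0.0327). The dPPRrbcL libraries lay below both WT libraries, but WT replicate 2 was closer to them than to WT replicate 1. That call was lost with 20 nt at each border left out (adjusted p = 0.185), against the last exon alone (adjusted p = 0.111) and without either dPPRrbcL library (adjusted p = 0.307 and 0.287). Set side by side, the petB intron exceeded the petD intron 8.25 and 8.94 times in WT and 2.22 and 2.15 times in dPPRrbcL.

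**Figure D3:**
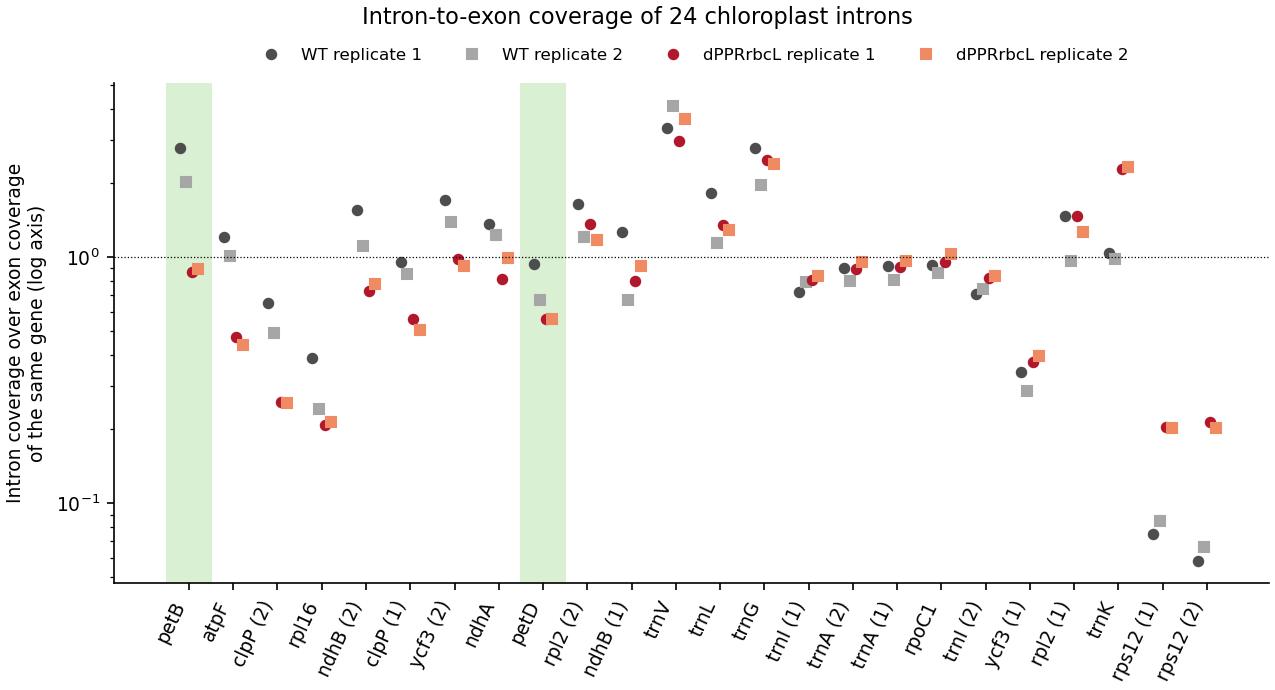
Mean coverage of each of 24 introns divided by that of the exons of its gene (log axis), 1 point per library, ordered by the change from WT to dPPRrbcL; numbers in brackets separate introns or copies of 1 gene by position, and petB and petD are shaded. The petB intron lies above its exons in both WT libraries (2.78 and 2.01) and below them in both dPPRrbcL libraries (0.873 and 0.898).

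The excess over the petB intron in WT lay mostly at its beginning. Coverage was raised before the intron too, with 747 and 688 reads per nucleotide in WT over the 20 nt ahead of it. The first 200 nt had 1023 and 1071 reads per nucleotide in WT, and 2399 and 2114 in dPPRrbcL. The remaining 604 nt had 225 and 178 in WT and 1490.0 and 1405 in dPPRrbcL. The first part thus exceeded the rest 4.54 and 6.01 times in WT against 1.61 and 1.50 times in dPPRrbcL. In WT replicate 1 this stretch held the highest coverage of the whole operon, 1377 reads at position 74938, while the maxima of the other 3 libraries (1922, 14303 and 13216 reads) lay between positions 73976 and 74004 in the spacer after psbB. The rest of the petB intron stood at 1.54 and 0.916 times petB exon 2 in WT and at 0.760 and 0.800 times in dPPRrbcL, so the groups did not overlap there either, with the WT replicates far apart. For petD, the first 200 nt of the intron stood at 1.83 and 1.73 times exon 2 in WT and at 0.762 and 0.730 times in dPPRrbcL. The remaining 509 nt stood at 0.596 and 0.257 times exon 2 in WT, on either side of the dPPRrbcL values of 0.480 and 0.489.

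The steps of coverage at the exon borders were measured over 20 nt on each side. At the start of the petB intron, the 20 nt after the border had 1.20 and 1.10 times the coverage of the 20 nt before it in WT, and 0.796 and 0.769 times in dPPRrbcL. At its end the step up into exon 2 was 1.70 and 2.56 times in WT and 1.53 and 1.50 times in dPPRrbcL. At the start of the petD intron coverage stepped down in every library, to 0.756 and 0.885 times in WT and to 0.533 and 0.564 times in dPPRrbcL. The step up into petD exon 2 was 2.94 and 2.21 times in WT and 2.44 and 2.64 times in dPPRrbcL, with the WT values on both sides of those of dPPRrbcL.

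Within the operon, scaled to its own mean coverage, 10 of the 15 segments stood higher in dPPRrbcL than in WT and 2 stood lower, with 55.7% of the 280 segments of the genome higher and 16.1% lower on the same scale (limma, Benjamini-Hochberg over 280 segments). The share of higher segments in the operon is near that of the genome, so the count is not a result about the operon. The lower segments were petB exon 1, at -1.29 (SE 0.20, adjusted p = 0.00570), and the petB intron, at -0.95 (SE 0.18, adjusted p = 0.00937), and exon 1, at 6 nt, is too short to be told apart from its neighbours in read coverage. The highest change was that of the spacer between psbN and psbH, at 1.82 (SE 0.18, adjusted p = 0.00185), followed by petD exon 2, at 1.52 (SE 0.13, adjusted p = 0.00130). psbB (-0.19), the spacer between psbB and psbT (0.34) and the spacer between psbH and petB (-0.23) did not pass, with adjusted p from 0.151 to 0.237. Without dPPRrbcL replicate 1, and likewise without replicate 2, limma called 3 higher and 0 lower (7 higher and 2 lower at an unadjusted p under 0.05), and the spacer between psbN and psbH and petD exon 2 were the segments that passed in both of these fits; scaled to the operon's median coverage they were 5 higher and 4 lower.

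**Figure D4:**
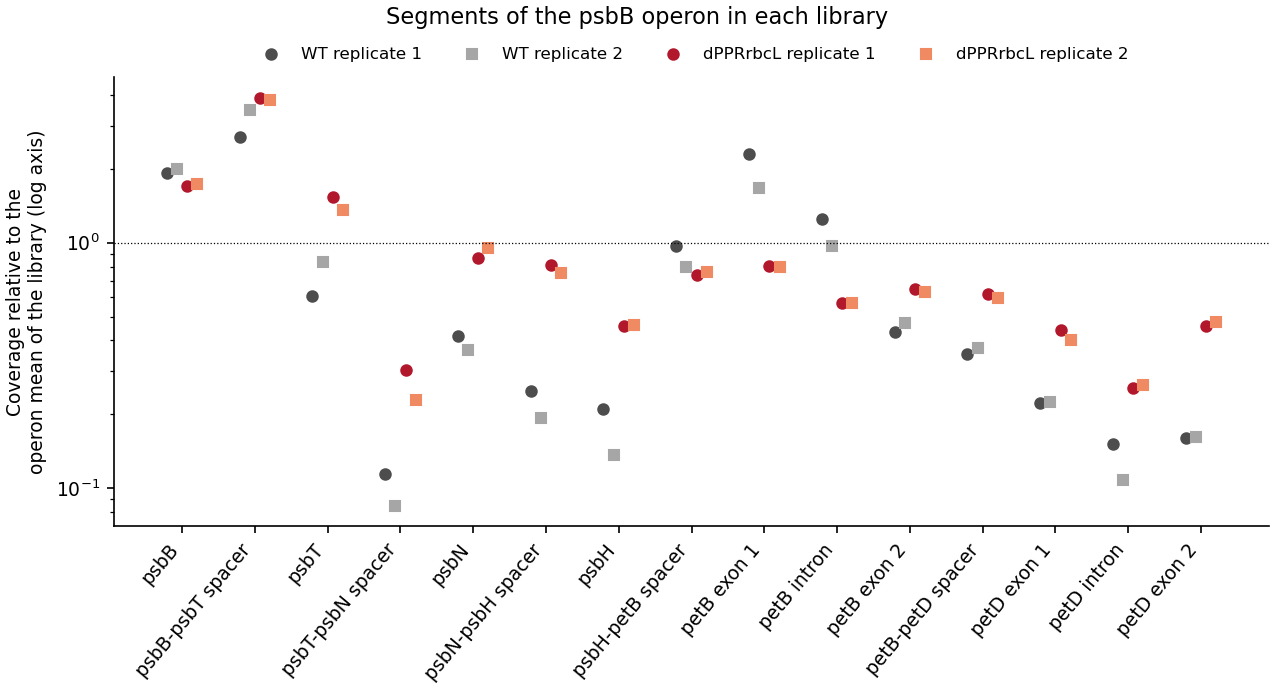
Mean coverage of each of the 15 segments divided by the operon mean of the same library (log axis), 1 point per library, in order along the plus strand. psbB, the psbH-petB spacer, petB exon 1 and the petB intron are higher in both WT libraries, and the other 11 segments are higher in both dPPRrbcL libraries. On this scale the median log2 change was 0.89 over these 15 segments and 0.84 over 280 segments of the genome. How many segments of the genome separate in this way was not counted.

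The spacers carried as wide a range as the genes. The spacer between psbB and psbT was the most covered segment in every library, with 914 and 1434 reads per nucleotide in WT, and 11754 and 10688 in dPPRrbcL. The spacer with the inverted repeat, between psbT and psbN, had 38.7 and 35.1 in WT and 910 and 637 in dPPRrbcL, the lowest of the spacers inside the operon in each library. Steps of coverage were taken as the mean of 20 nt after a position against that of the 20 nt before it. Close to the end of psbT, at 74158 to 74160, coverage fell from 188 to 40.8 and from 325 to 54.0 reads per nucleotide in WT, and from 4560.2 to 1431 and from 3682 to 960.4 in dPPRrbcL. On the log2 scale this was the steepest fall of the operon in WT replicate 1 and both dPPRrbcL libraries and the second steepest in WT replicate 2. Coverage rose again at 74236 to 74243, inside the second arm of the repeat, in every library. A fall at 74216 and 74217, inside the first arm, was among the 3 steepest of each dPPRrbcL library. It was not confined to dPPRrbcL. Between 1831 and 1851 nt from the first base of psbB, WT replicate 2 fell from 34.7 to 4.0 reads per nucleotide. WT replicate 1 fell less there, from 35.3 to 27.6.

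The other large steps lay in the introns. At 75102 in the petB intron coverage fell from 152 to 46.2 and from 166 to 25.6 reads per nucleotide in WT, the steepest fall of WT replicate 2 and the second of replicate 1, and from 637 to 338 in dPPRrbcL replicate 2, where it was among the 3 steepest. A rise at 75125 and 75126 followed it among the 3 largest of WT replicate 2 and dPPRrbcL replicate 2. In the petD intron WT coverage fell at 76696 from 37.5 to 15.6 in replicate 1 and at 76700 from 18.9 to 2.4 in replicate 2, and in replicate 1 it rose at 76756 from 12.7 to 28.4. The remaining steps among the 3 largest were those at the borders given above, up at the ends of the petB (75650) and petD (77197) introns and down at the start of the petD intron (76489) in dPPRrbcL replicate 1.

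The spacers on either side of psbH were unequal in WT and nearly equal in dPPRrbcL. The spacer between psbN and psbH, the region just upstream of the psbH coding sequence, had 84.3 and 80.0 reads per nucleotide in WT and 2453 and 2098 in dPPRrbcL. The spacer between psbH and petB had 329 and 330.1 in WT and 2230 and 2117 in dPPRrbcL. The first stood at 0.256 and 0.243 times the second in WT and at 1.10 and 0.991 times in dPPRrbcL, with no overlap. Relative to the median gene, the first was higher (0.91, SE 0.17, limma adjusted p = 0.0114) and the second lower (-1.14, SE 0.15, limma adjusted p = 0.00394); the first call was lost without either dPPRrbcL library (adjusted p = 0.110 and 0.0685). In WT, the coverage of the spacer between psbH and petB climbed toward the petB intron. It went from 132 and 119 in the window at 74701 to 74750 to 659 and 619 at 74801 to 74850, which enters the intron. In dPPRrbcL it went from 1784.5 and 1657 to 2528 and 2378. The changes of these windows relative to the median gene were -0.09 and -1.92. The raised WT coverage around the start of that intron thus reached into the spacer between psbH and petB. Whether it accounts for the inequality of the spacers was not tested. The spacer between petB and petD had 119 and 154 in WT and 1855 and 1659 in dPPRrbcL, and at -0.18 it did not pass (limma adjusted p = 0.325).

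On that scale, over 280 segments of which 23.6% were higher and 33.2% lower, 2 of the 15 operon segments were higher and 4 lower. petD exon 2 was the other higher segment (0.61, SE 0.13, limma adjusted p = 0.0148), a call that was lost without either dPPRrbcL library (adjusted p = 0.192 and 0.182). psbB, petB exon 1 (-2.20, SE 0.19, limma adjusted p = 0.00126) and the petB intron (-1.86, SE 0.17, limma adjusted p = 0.00145) were the other lower ones. These 4 lower segments passed the test with any 1 library left out. Outside the operon, the spacer before psbB, toward clpP, was lower as psbB was (-1.37, SE 0.16, limma adjusted p = 0.00282), with 167 and 242 reads per nucleotide in WT and 1143 and 1121 in dPPRrbcL. The spacer after petD, toward rpoA, had 5.35 and 2.89 reads per nucleotide in WT and 113 and 93.2 in dPPRrbcL. Its WT coverage was under the minimum set for testing, so this spacer was tested only through its coverage in dPPRrbcL. Its change of 0.52 (SE 0.35) did not pass (limma adjusted p = 0.263). Scaled to the operon mean, the spacer after petD did pass (1.43, SE 0.36, limma adjusted p = 0.0235). The spacer before psbB did not pass on the operon scale (-0.46, SE 0.15, limma adjusted p = 0.0507).

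Windows of 50 nt gave the profile without gene borders. Of 105 windows in the operon 4 were higher and 33 lower relative to the median gene, beside 12.6% higher and 21.5% lower of 2721 windows of the genome (limma, Benjamini-Hochberg over 2721 windows). Of the lower windows, 21 lay among the 30 of psbB and 8 among the 16 inside the petB intron. The median change was -0.99 over the psbB windows, -1.20 over those of the petB intron, -0.37 over 13 in petB exon 2, 0.71 over 14 in the petD intron and 0.56 over 9 in petD exon 2. The 1 window inside the petD intron that passed was lower (76551 to 76600, -0.77, limma adjusted p = 0.0452), and the intron as a whole stood at 0.09 (SE 0.19, limma adjusted p = 0.728). The lowest window, whose sequence is printed above, had 1331 and 1378 reads per nucleotide in WT, and 2705 and 2450.3 in dPPRrbcL, a log2 change of -2.93 (SE 0.20, adjusted p = 0.00441). The highest window, at 77001 to 77050 in the petD intron, had 29.6 and 2.0 reads per nucleotide in WT and 644 and 603 in dPPRrbcL, and its change of 2.16 (SE 1.26) did not pass (adjusted p = 0.253). The WT replicates lay far apart there. Without dPPRrbcL replicate 1, and likewise without replicate 2, limma called 0 windows (0 higher with 13 and 10 lower at an unadjusted p under 0.05). Without WT replicate 1 it called 21 higher and 52 lower, and without WT replicate 2 it called 17 higher and 45 lower.

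**Figure D5:**
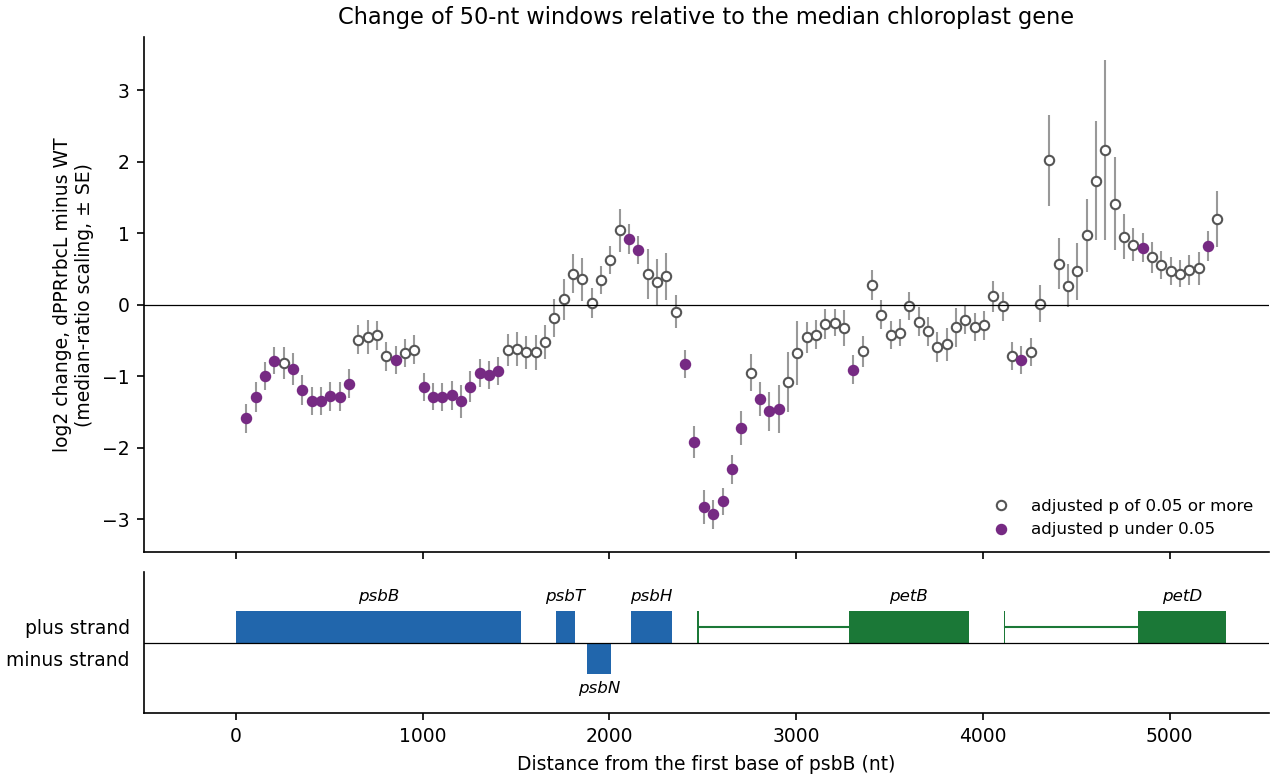
Log2 change of 105 windows of 50 nt, dPPRrbcL minus WT, relative to the median chloroplast gene (points, with SE), against the distance from the first base of psbB, above the map of exons and introns; filled points have an adjusted p under 0.05. Changes are below 0 over psbB, reach -2.93 at the start of the petB intron and lie above 0 over most of the petD intron, where those points are open, and exon 2.

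Genes of the same complexes elsewhere in the genome were set beside the operon. Of 11 photosystem II genes outside it, 6 were higher and 2 lower relative to the median gene, with a median of 0.76, beside the 25.9% and 35.7% of all genes given above. The highest were psbM (3.12) and psbL (1.96), genes of small subunits, and psbM had only 2.23 and 1.60 reads per nucleotide in WT, under the minimum of 10, so that it was tested only through its coverage in dPPRrbcL. Among the 10 genes that reached this minimum in WT alone, 5 were higher and 2 lower, with a median of 0.56. How many of all genes were higher or lower under that stricter minimum was not counted. Under the usual minimum, 25 of 85 protein-coding genes tested were higher and 23 lower. The lowest were psbD (-0.85) and psbC (-0.78), which encode the reaction centre protein D2 and the inner antenna protein CP43. psbB, the gene of the other inner antenna protein, lay below both at -1.10, and its differences from them were not tested. Of the 4 cytochrome b6f genes outside the operon, petL stood at 1.09 and passed, but with 4.85 and 11.5 reads per nucleotide in WT it too reached the minimum only through dPPRrbcL. petA (-0.65) and petN (-0.48) were lower, and petG stood at 0.44 without passing. petB and petD lay between petA and petL. The protein-coding genes nearest to the operon mean in their scaled levels over the 4 libraries, out of 79, were psaB, psaA, ndhB (the copy at 141485 to 143708), psbD and atpB, at Euclidean distances from 0.073 to 0.116 on the log2 scale, each with a change between -0.92 and -0.78. The operon mean follows psbB, the longest and most covered member. Distances between pairs of members ranged from 0.330 between psbN and petD to 1.70 between psbB and petD.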

How the data were processed

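For each library the authors deposited the coverage at every chloroplast position, in whole reads per nucleotide per the file headers, with no normalization recorded. Per the labels' protocols, 50 ng of the RNA went into each library (NEBNext Ultra II RNA kit). The mapper, its settings, the genome build and strand use are not given in the sources used here. All files covered positions 1 to 154478, the length of the TAIR10.1 chloroplast sequence, whose annotation (130 genes) and sequence were used. Coverage is not a count of independent reads and the number of reads is unknown, so no counting interval was computed. The summed coverage was 1602408234 to 1995360151 nt per library, and 2 libraries per group limit the precision.

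Mean coverage per gene (exons), segment or window of 50 nt, plus a pseudocount of 1 read per nucleotide, was divided by a library factor and taken as log2. Fold changes on this scale are understated for low coverage. Features with a mean coverage of at least 10 were tested with limma 3.58.1 (lmFit, eBayes; R 4.3.3), dPPRrbcL against WT, without covariate, with Benjamini-Hochberg adjustment over the whole table at 0.05. Library factors were the library total, the median ratio over 116 genes covered in every library, or the operon mean. For intron-to-exon ratios limma gave all introns the same SE. The fits were tested on simulated data. Tables and figures used Python 3.11.15, numpy 2.4.6, pandas 2.3.3 and matplotlib 3.10.9. Alternatives were other pseudocounts, filters, scalings, window sizes and exon definitions, a replicate block, and leaving out each library.

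Named were all 6 members with their segments and both flanks, rbcL, the 5 nearest genes, the 2 highest and 2 lowest genes of the photosystem II and cytochrome b6f lists, the highest and lowest window and the 3 largest rises and falls of coverage; atpF was added after its value was seen. The members and lists were chosen with earlier results of these data known.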

Additional observations from a re-analysis of the deposited data

How the results depend on the processing

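The petB intron-to-exon ratio kept its direction and its call in all 9 alternatives, and the 6 genes were higher under library-total scaling in all 14. The petD intron ratio kept its direction but did not pass with 20 nt at each border left out (-0.49), against the last exon (-0.52) or with a replicate block (-0.51), and ranged from -0.75 to -0.27 with 1 library left out. Relative to the median gene the main counts were 1 member higher and 2 lower. They became 0 and 4 with a pseudocount of 1% of the library mean, 6 and 0 with the median ratio taken after that pseudocount, 4 and 1 with a pseudocount of 10 and the ratio after it, and 5 and 0 when scaled to what rRNA and tRNA genes left of the coverage. The count of higher members was 2 with an intensity trend and 0 with introns included, that of lower members was 1 with the median coverage of exons, and with 1 library left out they ranged from 0 to 3 and from 1 to 2. These pseudocounts moved the median of all genes to -0.66 (10) and -2.24 (1%) where the ratio was taken before them.

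Signs turned as follows. With the pseudocount of 1%, psbT stood at -0.39, psbN at -0.47, psbH at -0.83 and petD at -0.80, and with the ratio after it psbB at 1.00 and petB at 1.18. petB stood at 0.25 with a pseudocount of 10 and the ratio after it, and at 0.49 when scaled without rRNA and tRNA. psbT stood at -0.12 with the median ratio over protein-coding genes, and from -0.15 to 0.36 with 1 library left out. Among segments, the pseudocount of 10 with the ratio after it gave 9 higher, with the psbB-psbT spacer at 0.18, petB exon 2 at 0.29, the petB-petD spacer at 0.50 and petD exon 1 at 0.61; the pseudocount of 10 alone put the petD intron at -0.14. With 1 library left out, 0 to 4 segments were higher, petD exon 1 ranged from -0.11 to 0.082 and the petD intron from -0.13 to 0.30. Scaled to the operon median, 5 segments were higher and 4 lower, with the psbB-psbT spacer at -0.27 and petB exon 2 at -0.11, and with 1 library left out and the operon mean 3 to 11 were higher and 0 to 3 lower. The cause of these changes was not tested, except that larger pseudocounts by construction lower the change of genes with little WT coverage.

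Of the windows, 19 were lower with windows of 100 nt, which number fewer, and 1 higher and 20 lower with a replicate block. A pseudocount of 10 gave 8 higher and 53 lower, and with the ratio after it 38 and 18. With 1 library left out 0 to 21 were higher and 0 to 52 lower. The operon's share differed by -8.32 points with introns included, by -4.47 without rbcL, and by -6.78 to -6.39 with 1 library left out. Deviations of same-numbered libraries correlated at -0.18 over 112 genes, which gives no sign of pairing by replicate number. With 2 libraries per group this cannot exclude such pairing, and the replicate block left 1 lower member. The crossed pairing, chosen after seeing the data as were the settings with the ratio taken after the pseudocount, gave 2 higher members and 0 higher and 19 lower windows. A fit without 1 library assumes that the lone library of its group varies like the other group.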
